A study of Mus musculus with 6 samples.

Results

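DNA replication and nucleotide synthesis genes encode the proteins that prepare origins, copy the genome and make its building blocks. The list holds 39 named genes, from the MCM helicase subunits to the enzymes of deoxynucleotide supply. It was chosen with earlier results of these data known. Of its genes 38 were measured among 12394 genes. Gins2 was not analysed here. By role the measured members divide into 14 genes of origin licensing and the replicative helicase, 17 genes of DNA polymerases and the replication fork, 6 genes of nucleotide supply, and Uhrf1, which links replication to DNA methylation. They were measured in regulatory T (Treg) cells, the CD4 T cells that restrain immune responses.

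The 3 arrays labelled Gata3-deficient, titled GATA3KO, hold Treg cells of mice with both Gata3 alleles floxed (Gata3F/F Foxp3YFP-Cre). The 3 arrays labelled Gata3-sufficient, titled WT, hold Treg cells of mice with 1 floxed and 1 unmodified allele (Gata3F/+ Foxp3YFP-Cre), so the controls carry the Cre and a floxed allele too. Cre is expressed with YFP from the Foxp3 locus, which is active in Treg cells, and CD4+CD25+YFP+ cells were sorted from spleen and lymph nodes, with 3 mice in each group. These are called deficient-labelled and sufficient-labelled arrays. Age and strain are not stated in the labels. The design addresses how Treg cell transcripts change on loss of Gata3, a transcription factor gene of T cell development.

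Values are log2 intensities of Affymetrix probe sets, and the brightest probe set stands for a gene. A log2 change is deficient-labelled arrays minus sufficient-labelled arrays, errors are SDs over 3 arrays or limma's standard errors (SE), and a gene passed where limma's p, adjusted over all 12394 genes, was under 0.05. A probe set is called dim where its mean lay below 5.25, the 40th percentile of all probe sets. The Gata3 probe set read 9.83, 9.98 and 9.71 in deficient-labelled arrays, against 9.57, 9.41 and 9.47 in sufficient-labelled arrays. The deleted gene thus had the higher signal under the label that names its loss (log2 change 0.35 ± 0.07, SE, adjusted p = 0.0387 by limma), a call that held in 2 of 6 fits with an array left out. The labels do not say which part of Gata3 is removed, and a probe set outside it checks nothing, so every direction here rests on the labels. T cell markers were bright, such as Cd3d at 12.85 ± 0.01 in deficient-labelled arrays and 12.83 ± 0.03 in sufficient-labelled arrays (SD, n = 3 each), while the Foxp3 probe set was dim at 3.94 ± 0.12 in deficient-labelled arrays and 3.90 ± 0.05 in sufficient-labelled arrays. Deficient-labelled replicate 1 stood apart on the second principal component (25.0% of the variance) at 12.1, against -8.03 and -9.74 for deficient-labelled replicates 2 and 3.

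Replication begins in G1, when the origin recognition complex, Cdc6 and Cdt1 load the Mcm2 to Mcm7 helicase ring onto DNA, a step called licensing. In S phase Cdc45 and the GINS complex switch the helicase on, polymerase alpha with its primase starts each strand, and polymerases delta and epsilon extend it, held by the PCNA clamp that the RFC complex loads. Ribonucleotide reductase and thymidylate enzymes supply the deoxynucleotides. Transcription of many of these genes rises at the G1 to S transition through E2F factors, and in lymphocytes they are low at rest and induced when cells enter the cycle.

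Promoters of the members whose values the results turn on are shown first, because E2F factors are the common regulators of this gene group. RefSeq windows of GRCm38.p6, from 250 bases before to 50 after a gene's start, were found for 34 of the 38 measured members by gene ID. Both strands were searched for the E2F letters TTTGGCGC, TTTCCCGC, TTTGCCGC and TTTCGCGC and for the CCAAT box, and these are in capitals below, 5′ to 3′. Rrm2 and Uhrf1 are the members that passed, Cdc6 had the next largest change, and Mcm6 held the most E2F matches. Uhrf1 has 2 windows, of which the one with E2F letters is shown.
Rrm2, chr12:24708004-24708303, + strand: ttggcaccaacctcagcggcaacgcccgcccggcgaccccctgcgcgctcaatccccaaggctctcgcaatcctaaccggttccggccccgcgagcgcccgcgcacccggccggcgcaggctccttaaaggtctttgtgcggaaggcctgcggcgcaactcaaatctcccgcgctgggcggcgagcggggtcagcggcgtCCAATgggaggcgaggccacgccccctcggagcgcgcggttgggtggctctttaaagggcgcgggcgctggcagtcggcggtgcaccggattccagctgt
Uhrf1, chr17:56304063-56304362, + strand: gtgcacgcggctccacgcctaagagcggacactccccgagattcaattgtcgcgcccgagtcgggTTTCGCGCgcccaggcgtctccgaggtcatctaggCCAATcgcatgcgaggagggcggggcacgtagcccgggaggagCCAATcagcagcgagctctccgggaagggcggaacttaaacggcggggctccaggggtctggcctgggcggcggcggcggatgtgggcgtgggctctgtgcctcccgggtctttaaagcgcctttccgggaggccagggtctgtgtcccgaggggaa
Cdc6, chr11:98907901-98908200, + strand: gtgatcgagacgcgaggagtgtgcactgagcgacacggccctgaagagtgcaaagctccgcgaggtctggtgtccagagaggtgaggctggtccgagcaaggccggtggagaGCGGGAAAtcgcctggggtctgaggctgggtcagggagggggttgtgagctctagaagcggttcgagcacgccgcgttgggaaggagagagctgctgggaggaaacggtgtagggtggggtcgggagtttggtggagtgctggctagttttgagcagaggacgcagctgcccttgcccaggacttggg
Mcm6, chr1:128359656-128359955, - strand: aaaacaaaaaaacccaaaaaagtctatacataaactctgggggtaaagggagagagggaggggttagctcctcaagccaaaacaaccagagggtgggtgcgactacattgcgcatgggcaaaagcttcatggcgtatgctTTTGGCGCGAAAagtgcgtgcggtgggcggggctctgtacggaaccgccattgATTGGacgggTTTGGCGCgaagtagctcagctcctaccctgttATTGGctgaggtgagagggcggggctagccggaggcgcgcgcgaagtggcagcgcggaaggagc
The Mcm6 window held 3 E2F matches, of which those starting at -110 and -106 from the gene's start overlap. The matches of Cdc6 and Uhrf1 started at -138 and -185. The Rrm2 window held a CCAAT box at -50 and none of the E2F letters searched.

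E2F letters stood in at least 1 window of 12 of 34 members (35.3%), against 402 of 9888 measured genes with a window (4.07%). Licensing genes held them in 7 of 12, polymerase genes in 4 of 15 and nucleotide genes in 0 of 6. The CCAAT box was found for 22 of 34 members (64.7%), against 42.3% of all genes. The cell cycle homology letters TTTGAA were found for 14.7% of members and 15.4% of all genes. GATA letters, which are the motif AGATAA with its first base A or T and its last base A or G, were found for 6 of 34 members (17.6%), against 24.9% of all genes. Among members whose groups did not overlap, 4 of 16 held E2F letters and 0 of 16 GATA letters, against 8 and 6 of the 18 members whose groups overlapped. The 16 genes had 17 windows and the 18 genes had 24, so less sequence per gene was searched in the former. No share over all genes was taken for this split. These are matches of letters, with no test and no measured binding.

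Across the list, 32 of the 38 members had a positive change in deficient-labelled arrays, with a median log2 change of 0.11, against 53.0% of all genes and a median of 0.01. Rrm2 and Uhrf1 rose, so 2 members passed upwards, where 1.44% of all genes did, and 0 passed downwards, where 0.766% did, by limma. At an unadjusted p under 0.05 by limma, 13 members were higher, where 8.63% of all genes were. At that p 0 members were lower, where 719 of the 12394 genes were. All 3 values in deficient-labelled arrays lay above all 3 in sufficient-labelled arrays for 17 members, a pattern that 11.3% of all genes showed. The opposite pattern was seen in 0 members and 8.51% of all genes. With 3 arrays a label, the smallest two-sided p of an exact permutation test is 0.1, so the calls rest on limma's shared estimate of the spread.

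**Figure D1:**
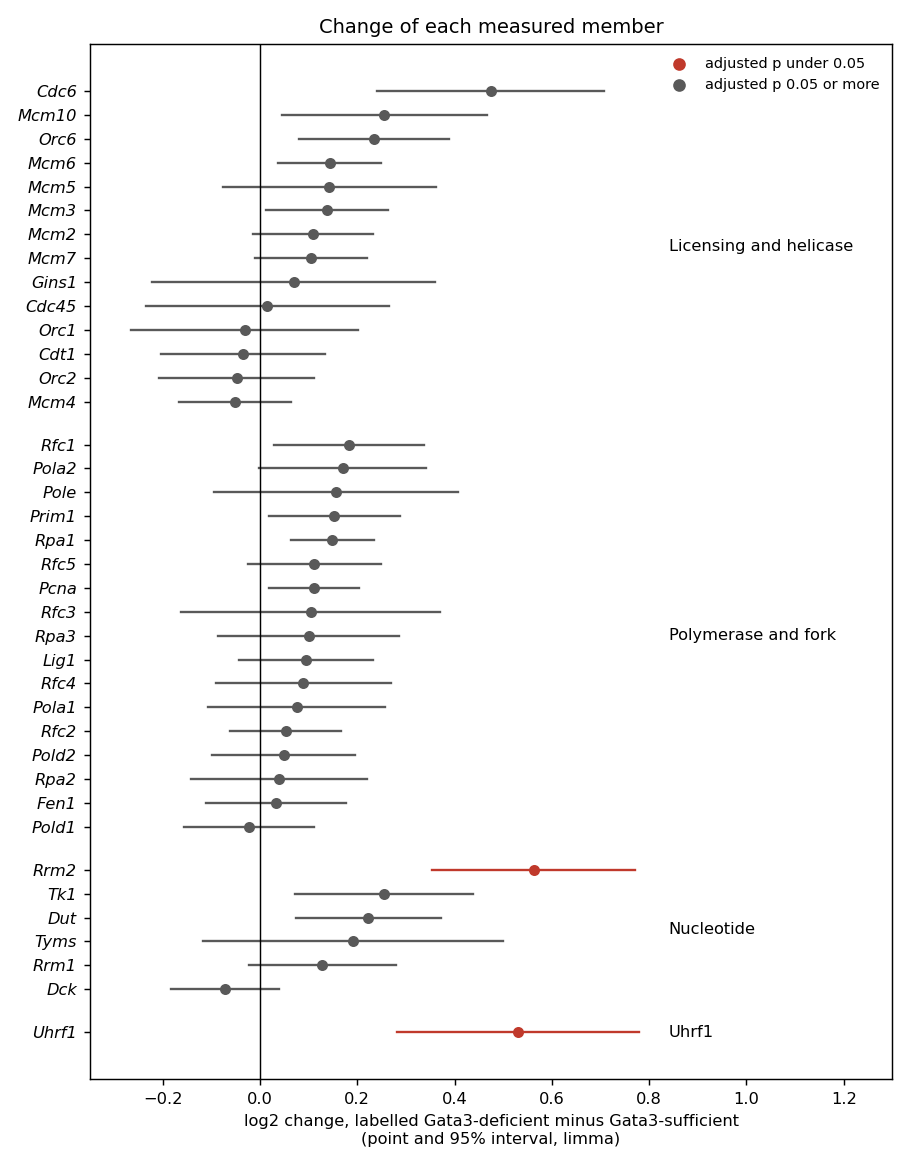
Log2 change (deficient-labelled minus sufficient-labelled arrays) of each of the 38 measured members, ordered by role, with 95% intervals from limma. Rrm2 (0.56) and Uhrf1 (0.53) are the coloured genes past the threshold, Cdc6 (0.47) lies next, and 25 of the other 36 intervals span 0.

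Most changes were small. Of the 36 members that did not pass, 35 had 95% intervals with an upper bound under 0.5 on the log2 scale, the exception being Cdc6 with a bound of 0.71. The lowest lower bound of these 36 intervals was -0.26. In these bulk samples a larger share of cycling cells and more transcript per cell cannot be told apart.

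Rrm2 and Uhrf1 had the largest changes of the list. Rrm2 encodes the regulated small subunit of ribonucleotide reductase, the enzyme that makes deoxynucleotides. Its signal was 7.48, 7.59 and 7.64 in deficient-labelled arrays, against 6.98, 6.85 and 7.19 in sufficient-labelled arrays. The groups stood clearly apart, at 1.48-fold (log2 change 0.56 ± 0.09, SE). It passed at an adjusted p of 0.0185 in limma and ranked 70 among 12394 genes from the most positive change. Uhrf1, whose protein binds hemimethylated DNA behind the fork and recruits the maintenance methyltransferase, read 7.25, 7.28 and 7.43 in deficient-labelled arrays, against 6.76, 6.58 and 7.03 in sufficient-labelled arrays. Its groups did not overlap either, and it rose 1.44-fold (0.53 ± 0.11, adjusted p = 0.0427 by limma, rank 92). The lowest values of both genes were those of sufficient-labelled replicate 2.

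Both calls depended on single arrays. Without deficient-labelled replicate 2 or 3 or sufficient-labelled replicate 2, Rrm2 kept a log2 change of 0.56, 0.53 and 0.48 but no longer passed (adjusted p = 0.0843, 0.0664 and 0.0847), and over the 6 such fits its adjusted p lay between 0.0141 and 0.0847. Uhrf1 passed in 1 of the 6 fits, the fit without sufficient-labelled replicate 3 (log2 change 0.65). Its change in the other 5 was 0.57, 0.55 and 0.47 without deficient-labelled replicates 1, 2 and 3, and 0.52 and 0.42 without sufficient-labelled replicates 1 and 2, with adjusted p from 0.0682 to 0.176. Without limma's intensity trend neither passed (adjusted p = 0.0733 for Rrm2 and 0.127 for Uhrf1). With the mean of all probe sets of a gene neither passed either, at a log2 change of 0.43 for Rrm2 (adjusted p = 0.094) and 0.30 for Uhrf1 (adjusted p = 0.113).

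The other nucleotide genes had smaller changes, and 0 of these 5 passed by limma. Of the 5, 2 were higher at an unadjusted p under 0.05, where 8.63% of all genes were. Dut, the enzyme that turns dUTP into dUMP, the precursor of thymidylate, read 8.78, 8.98 and 8.91 in deficient-labelled arrays, against 8.60, 8.65 and 8.76 in sufficient-labelled arrays. Tk1, the thymidine kinase of the salvage pathway, read 6.28, 6.35 and 6.45 in deficient-labelled arrays, against 6.09, 6.08 and 6.14 in sufficient-labelled arrays. In both the groups stood apart, narrowly in Dut, where the nearest arrays were 8.78 (deficient-labelled) and 8.76 (sufficient-labelled), with log2 changes of 0.22 ± 0.07 and 0.25 ± 0.08 (SE, adjusted p = 0.134 and 0.167 by limma). Rrm1, the large subunit that pairs with Rrm2, had a log2 change of 0.13 ± 0.07, with overlapping groups. Tyms, which makes thymidylate, was dim at 4.79 ± 0.14 in deficient-labelled arrays and 4.60 ± 0.25 in sufficient-labelled arrays (SD, n = 3 each), and 1 further probe set annotated to Tyms and a pseudogene was left out. Dck, the deoxycytidine kinase of salvage, was the nucleotide gene with a negative change (-0.07 ± 0.05, SE, adjusted p = 0.589).

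Among the 14 licensing and helicase genes 0 passed. At an unadjusted p under 0.05 by limma, 5 were higher, where 8.63% of all genes were. Cdc6, the loader of the helicase ring, came nearest, at 5.17, 5.41 and 5.27 in deficient-labelled arrays, against 4.79, 4.72 and 4.92 in sufficient-labelled arrays. Its groups did not overlap on this dim probe set, at 1.39-fold (log2 change 0.47 ± 0.10, SE; limma adjusted p = 0.051). Cdc6 passed in limma with robust variance (adjusted p = 0.0438), median centring (0.0482), array quality weights (0.0133) and the mean of all probe sets (0.0433). Its adjusted p over the other settings and left-out arrays went up to 0.226. Cdc6 has 1 probe set, so the mean of all probe sets left its values as they were. It could not be read in the fits without dim or without _a_at probe sets. Orc6, a small subunit of the origin recognition complex, read 7.67, 7.81 and 7.62 in deficient-labelled arrays, against 7.51, 7.43 and 7.46 in sufficient-labelled arrays (log2 change 0.23 ± 0.07, adjusted p = 0.128). Mcm6, a subunit of the ring, read 10.28, 10.25 and 10.34 in deficient-labelled arrays, against 10.17, 10.08 and 10.19 in sufficient-labelled arrays (0.14 ± 0.05, adjusted p = 0.181). In both genes the groups did not overlap.

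The subunits of the helicase ring did not all have the same sign. Mcm2, Mcm3, Mcm5, Mcm6 and Mcm7 had log2 changes from 0.10 to 0.14, while Mcm4 had -0.05 ± 0.05 (SE), with a 95% interval from -0.17 to 0.06. Mcm10, which joins the helicase when origins fire, had 0.26 ± 0.09 with groups that did not overlap (adjusted p = 0.234 by limma). Cdc45 and Gins1, the helicase activators, had 0.02 ± 0.11 and 0.07 ± 0.13, and the groups of both overlapped. Without probe sets of the classes _x_at, _s_at and _a_at, which can read several transcripts, Mcm2 had -0.05 and Mcm10 -0.04. Mcm7 was read by 4 probe sets with changes of 0.10, -0.03, -0.05 and 0.05, and their mean had 0.02. Cdt1, the partner of Cdc6 in loading, had -0.03 ± 0.08, and the origin recognition subunits Orc1 (dim) and Orc2 had -0.03 ± 0.10 and -0.05 ± 0.07.

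**Figure D2:**
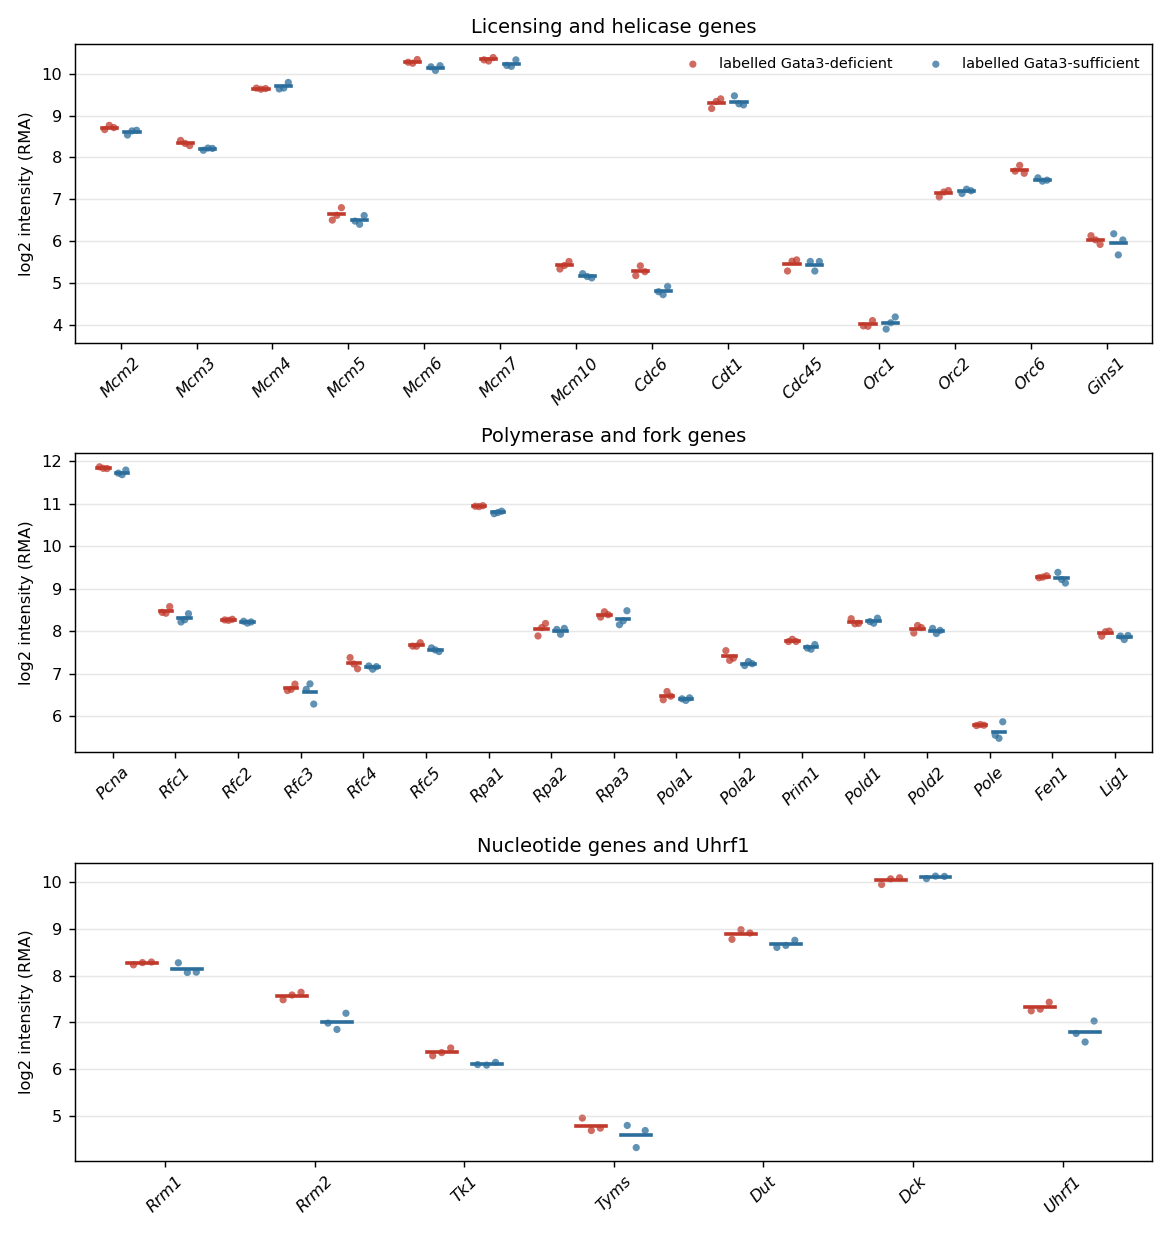
Log2 intensity of the 38 members on each array, deficient-labelled arrays on the left of each gene and sufficient-labelled on the right; points are arrays and bars group means of 3. Rrm2, Uhrf1 and Cdc6 have the largest differences between means, with Rrm2 at 7.48 to 7.64 in deficient-labelled and 6.85 to 7.19 in sufficient-labelled arrays.

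Of the 17 polymerase and fork genes 16 had a positive change and 0 passed. At an unadjusted p under 0.05 by limma, 4 were higher, where 8.63% of all genes were. Rpa1, the large subunit of the single-strand binding complex RPA, read 10.94, 10.94 and 10.96 in deficient-labelled arrays, against 10.77, 10.80 and 10.83 in sufficient-labelled arrays. That gap was wide for the tight replicates but only 1.11-fold (log2 change 0.15 ± 0.04, SE, adjusted p = 0.0867 by limma). With array quality weights it passed (adjusted p = 0.0416), and on its other probe set, used when _a_at sets were left out, the change was 0.08 (adjusted p = 0.501). Pcna, the sliding clamp, read 11.87, 11.84 and 11.83 in deficient-labelled arrays, against 11.72, 11.69 and 11.80 in sufficient-labelled arrays (0.11 ± 0.04). Rfc1, the large subunit of the clamp loader, read 8.45, 8.43 and 8.58 in deficient-labelled arrays, against 8.22, 8.27 and 8.41 in sufficient-labelled arrays (0.18 ± 0.07). The groups of Pcna and Rfc1 did not overlap, although the nearest arrays stood at 11.83 (deficient-labelled) and 11.80 (sufficient-labelled) for Pcna and at 8.43 and 8.41 for Rfc1.

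Polymerase alpha and its primase had log2 changes of 0.08 ± 0.08 (Pola1, the catalytic subunit), 0.17 ± 0.08 (Pola2, its regulatory subunit) and 0.15 ± 0.06 (Prim1, the primase, adjusted p = 0.271 by limma). Polymerase delta had -0.02 ± 0.06 for the catalytic subunit Pold1 and 0.05 ± 0.07 for Pold2, and the polymerase epsilon catalytic gene Pole had 0.16 ± 0.11. The other clamp loader genes Rfc2, Rfc3, Rfc4 and Rfc5 had changes from 0.05 to 0.11, and the RPA subunits Rpa2 and Rpa3 had 0.04 and 0.10. Fen1 and Lig1, the nuclease and the ligase that finish Okazaki fragments, had 0.03 ± 0.06 and 0.09 ± 0.06. Of these 14 genes 0 passed by limma, and Prim1 was the one with an unadjusted p under 0.05. At that p 8.63% of all genes were higher.

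Other probe sets of the same genes gave part of the same picture. Of the 38 members 23 had several probe sets, with 34 beside the brightest ones, and 22 of the 34 had the same sign as the brightest, or 18 of the 27 that were not dim. Rrm2 had 3 probe sets, with log2 changes of 0.56 ± 0.09, 0.52 ± 0.14 and 0.21 ± 0.14 (SE), and the groups of the third overlapped. The brightest Rrm2 set belongs to a class (_x_at) that can read near-identical sequences, and without that class the adjusted p was 0.107. The second Uhrf1 probe set was dim and had 0.06 ± 0.11. Rfc1 had -0.10 ± 0.06 on its second probe set, with all deficient-labelled values below all sufficient-labelled ones, against 0.18 on the brightest. Pola2 also had a lower, dim probe set (-0.26 ± 0.10), and the second Rrm1 probe set had -0.05 ± 0.08, with overlapping groups. With the mean of all probe sets the change of Rfc1 was 0.02, of Rrm1 0.04 and of Pola2 -0.04, against 0.18, 0.13 and 0.17 on the brightest. Prim1 and Tyms had 0.07 each by that mean, Mcm2 0.03 and Mcm10 0.11, against 0.15, 0.19, 0.11 and 0.26 on the brightest. All 4 additional Mcm3 probe sets were positive, from 0.07 to 0.29.

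**Figure D3:**
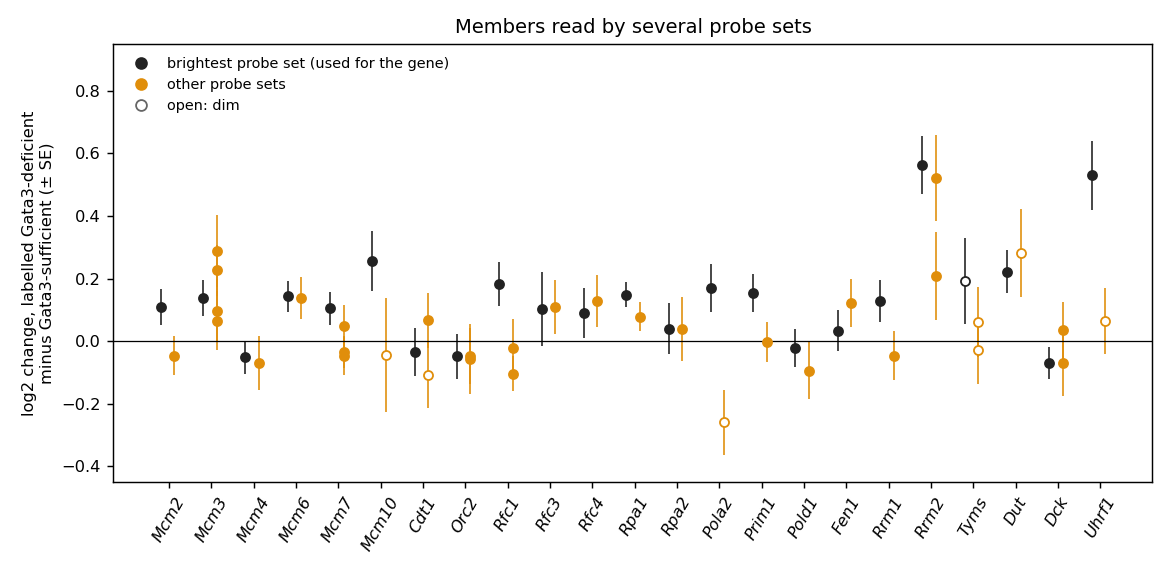
Log2 change (deficient-labelled minus sufficient-labelled arrays, ± SE) of every probe set of the 23 members with several, black for the brightest, orange for the others and open for dim ones. Rrm2 is positive in all 3 probe sets, while Rfc1, Pola2 and Rrm1 are among the genes with probe sets of both signs.

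An array score, the mean over members of each value minus the gene's mean over 6 arrays, was 0.031, 0.073 and 0.092 in deficient-labelled arrays, against -0.058, -0.119 and -0.020 in sufficient-labelled arrays. The 2 groups did not overlap, and their means differed by 0.13, or 1.10-fold, beside 0.01 over all 12394 genes. Without Rrm2 and Uhrf1 the difference was 0.11. By role, nucleotide genes differed by 0.21 (0.107 ± 0.038 in deficient-labelled arrays against -0.107 ± 0.079 in sufficient-labelled arrays, SD, n = 3 each). Licensing genes differed by 0.11 (0.054 ± 0.043 in deficient-labelled arrays against -0.054 ± 0.053 in sufficient-labelled arrays) and polymerase genes by 0.10 (0.048 ± 0.016 in deficient-labelled arrays against -0.048 ± 0.028 in sufficient-labelled arrays). Without _x_at, _s_at and _a_at probe sets the licensing difference was 0.06 over 12 genes, with Cdc6 and Mcm7 no longer measured. The licensing scores came closest, with 0.005 in deficient-labelled replicate 1 and -0.006 in sufficient-labelled replicate 3. Leaving out deficient-labelled replicate 1, the array that stood apart, gave 0.15 for all members. These scores are descriptions with no test, and differences between roles were not tested.

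**Figure D4:**
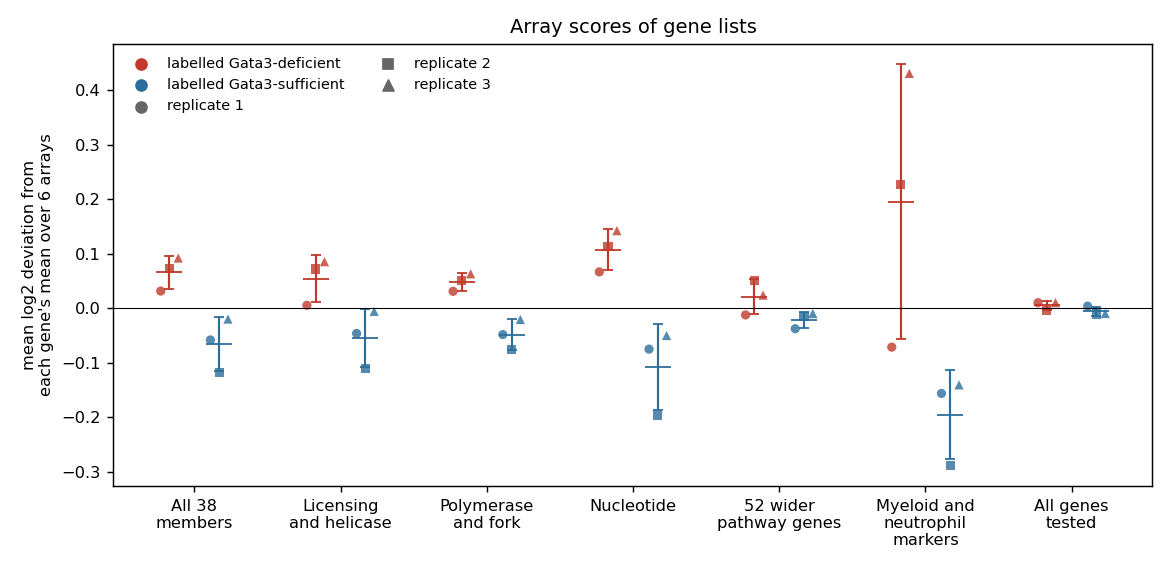
Mean log2 deviation from each gene's mean over the 6 arrays, for the members, their roles, 52 wider pathway genes, 20 myeloid and neutrophil markers and all 12394 genes; marker shapes are replicates, horizontal bars group means and whiskers SDs (n = 3). The members' scores are 0.031 to 0.092 in deficient-labelled and -0.119 to -0.020 in sufficient-labelled arrays, while the myeloid and neutrophil scores spread from -0.071 to 0.431 in deficient-labelled and from -0.289 to -0.141 in sufficient-labelled arrays.

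Markers of myeloid cells and neutrophils, which a sort can carry over, had higher values in deficient-labelled arrays too. Of 21 such markers 20 were measured and 19 had a positive change. At an unadjusted p under 0.05 by limma, 6 were higher, where 8.63% of all genes were. Lyz1 alone passed (log2 change 1.44 ± 0.31, SE, adjusted p = 0.0468 by limma). S100a9 had 1.10 ± 0.31 and Lyz2 1.02 ± 0.26 (adjusted p = 0.113 and 0.0849 by limma), and the groups of both stood apart. Groups stood apart upwards in 6 of the 20, as in 11.3% of all genes. Cd14 (0.03 ± 0.10), Cd68 (0.02 ± 0.10) and Mpo (0.04 ± 0.13), all dim, changed little. The mean log2 level of the 20 markers ranged from 5.19 to 5.70 in deficient-labelled arrays, against 4.98 to 5.13 in sufficient-labelled arrays, and 10 of the 20 were dim, with changes from -0.10 (Itgam) to 0.74 (Ngp). Their score differed by 0.39 between the labels, beside 0.13 for the members. Within each label the order of the 3 arrays was the same in this score as in the members' score, with deficient-labelled replicate 3 highest and sufficient-labelled replicate 2 lowest in both. In deficient-labelled replicate 1 the myeloid and neutrophil score was -0.071, below its mean over the arrays, while the members' score was 0.031. The mean log2 level of 10 T and Treg cell markers was 9.69 to 9.75 in deficient-labelled arrays against 9.57 to 9.69 in sufficient-labelled arrays. Of these 10 markers 9 had a positive change and 4 were higher at an unadjusted p under 0.05, Ctla4 (0.22, adjusted p = 0.0531 by limma) and Il2ra (0.20, adjusted p = 0.121) with groups apart, and their score differed by 0.09. Of 9 B and plasma cell markers 5 had a positive and 4 a negative change, with Cd22 at 1.15, which passed, and Jchain at -0.78, which did not (adjusted p = 0.178 by limma). Of 6 CD8 T and NK cell and 3 erythroid markers 0 passed by limma. The CD8 T and NK cell markers had 3 positive and 3 negative changes, and their score differed by -0.21. Of them Klrd1 (-0.71, adjusted p = 0.177 by limma) and Klrk1 (-0.57, adjusted p = 0.121) were lower at an unadjusted p under 0.05, where 719 of the 12394 genes were. Both had all deficient-labelled values below all sufficient-labelled ones, as did 8.51% of all genes. The part of other cells in the members' changes was not tested.

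Beyond the members, 52 of 68 listed genes of the same pathways were measured. Of these 2 rose and 2 fell, where 1.44% and 0.766% of all genes did, 31 had a positive and 21 a negative change, and the median log2 change was 0.02. At an unadjusted p under 0.05 by limma, 12 were higher and 6 lower, where 8.63% and 719 of the 12394 genes were. Groups stood apart upwards for 14 and downwards for 7, where 11.3% and 8.51% of all genes did. Mthfd2, a mitochondrial enzyme of the folate cycle that feeds purine and thymidylate synthesis, read 9.08, 9.08 and 8.97 in deficient-labelled arrays, against 8.60, 8.56 and 8.83 in sufficient-labelled arrays. Tipin, a partner of Timeless that stabilises the fork, read 8.61, 8.63 and 8.58 in deficient-labelled arrays, against 8.35, 8.07 and 8.34 in sufficient-labelled arrays. Neither gene's groups overlapped (log2 changes 0.38 ± 0.07 and 0.35 ± 0.08, SE, adjusted p = 0.0371 and 0.0478 by limma).

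Samhd1, which breaks deoxynucleotides down, read 11.58, 11.50 and 11.53 in deficient-labelled arrays, against 11.83, 11.71 and 11.86 in sufficient-labelled arrays. Orc4, a subunit of the origin recognition complex, read 8.67, 8.59 and 8.69 in deficient-labelled arrays, against 8.90, 8.93 and 8.87 in sufficient-labelled arrays. For both, all deficient-labelled arrays were below all sufficient-labelled ones. Samhd1 fell by 0.26 and Orc4 by 0.25 on the log2 scale (SE 0.05 each, adjusted p = 0.0245 and 0.0398 by limma). With each array left out in turn, Samhd1 passed in 2 of 6 fits, Mthfd2 and Tipin in 1 and Orc4 in 0, with adjusted p up to 0.118, 0.169, 0.166 and 0.185. Orc4 had -0.13 with the mean of its probe sets and -0.09 without _a_at sets (adjusted p = 0.287 and 0.642).

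By group, other licensing and origin firing genes had a median log2 change of -0.03 over 12 genes, other polymerase and fork genes 0.03 over 16, other deoxynucleotide and thymidylate genes 0.09 over 11, and de novo purine and pyrimidine genes 0.08 over 13. In the last group 0 passed by limma, and 3 of 13 were higher at an unadjusted p under 0.05, where 8.63% of all genes were. The 3 were Adss, which makes the AMP precursor (0.19 ± 0.04, SE, adjusted p = 0.0593), Gart, of the purine ring pathway (0.22 ± 0.06, 0.088), and Cmpk1, a pyrimidine nucleotide kinase (0.15 ± 0.04, 0.128).

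**Figure D5:**
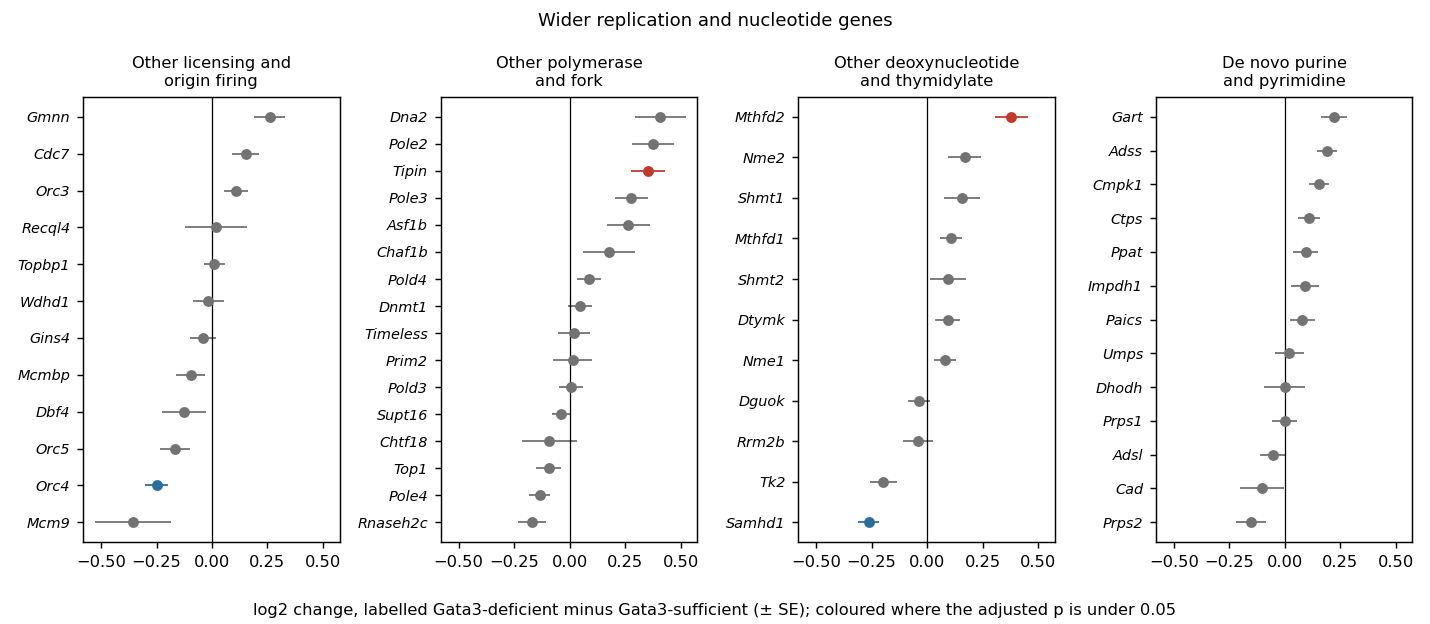
Log2 change (deficient-labelled minus sufficient-labelled arrays, ± SE) of 52 wider replication and nucleotide genes in 4 lists. Mthfd2 (0.38) and Tipin (0.35) are coloured as higher, Samhd1 (-0.26) and Orc4 (-0.25) as lower, and the remaining 48 did not pass.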

How the data were processed

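Affymetrix arrays of 3 mice per label were used, each from 6 ug of total RNA labelled with biotin per the labels' protocols. The authors deposited log2 intensities processed by RMA, as named in the submitters' processing notes without a version. RMA subtracts background, makes the arrays' quantiles equal and summarises each probe set, which can even out small differences between arrays. The log2 scale was read from the values. Background levels, saturation and scan dates were not analysed here. Of 22690 probe sets, 20393 had 1 gene in the platform annotation, and the remainder was not used.

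The fit used limma 3.58.1 under R 4.3.3 (lmFit, then eBayes with an intensity trend) over all 12394 genes, two-sided, with Benjamini-Hochberg adjustment. The fit was run on simulated arrays whose spreads were shuffled over genes, so the intensity trend was not tested by them. Every measured member is named; arrays' values are given for members that passed and the 3 of each role with the smallest p. In the wider lists, genes that passed are named, or otherwise the 3 with the smallest p. Members and lists were chosen with earlier results of these data known. Figures were drawn with matplotlib 3.10.9. Alternatives were the replicate block, variance settings, dim probe sets, normalization, array weights, probe set choice and each array left out.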

Additional observations from a re-analysis of the deposited data

How the results depend on the processing

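The mean log2 difference is a plain mean, so the replicate block, the variance settings and the array weights could not move it. The alternatives in normalization, dim probe sets, probe set choice and left-out arrays kept its sign for all members and for each role. It was 0.10 to 0.15 for all members when an array was left out. Without _x_at, _s_at and _a_at probe sets the licensing difference was 0.06 over 12 genes and the nucleotide difference 0.28 over 5. These values are not of the same genes. Cdc6 and Mcm7 fell out of licensing, and Dck, the nucleotide gene with a negative change, fell out too. Dut was then read by a dim probe set with a log2 change of 0.28. Members with a positive change numbered 29 to 33 of 38 with all members tested, 30 of 35 without dim probe sets and 27 of 33 without _x_at, _s_at and _a_at probe sets. Members higher past the threshold, 2 in the fit described, numbered 0 when limma's intensity trend was dropped, 5 with array quality weights (Cdc6, Rpa1 and Dut in addition), 1 with the mean of all probe sets (Cdc6, while Rrm2 and Uhrf1 were lost), 1 without _x_at, _s_at and _a_at probe sets (Uhrf1), and 0 to 2 with an array left out; at an unadjusted p under 0.05 they numbered 7 to 14 with an array left out. Over all genes, 31 higher and 23 lower passed when the trend was dropped, 400 and 185 with array quality weights, and 35 to 165 and 24 to 106 with an array left out, lowest without deficient-labelled replicate 2 (35) and sufficient-labelled replicate 2 (24). Among single members, the sign turned for Mcm2 (-0.046), Mcm10 (-0.044) and Cdt1 (0.067) without those probe sets, for Cdt1 with array quality weights (0.022), and for Pola2 with the mean of all probe sets (-0.045); the log2 change when an array was left out ran from -0.083 to 0.033 for Cdt1, -0.061 to 0.099 for Cdc45, -0.10 to 0.040 for Orc1, -0.095 to 0.0050 for Orc2, -0.075 to 0.18 for Gins1, -0.033 to 0.21 for Rfc3, -0.026 to 0.12 for Rpa2, -0.060 to 0.011 for Pold1 and -0.022 to 0.10 for Fen1. The cause was not tested.

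Replicate numbers are not stated to pair mice. The deviations of same-numbered arrays from their group means correlated at 0.04, -0.02 and 0.07 over genes. With 3 arrays a label these values cannot settle whether the mice were paired. With the replicate block 234 genes were higher and 134 lower, the 2 members passed as before (adjusted p = 0.00956 for Rrm2 and 0.0149 for Uhrf1), and Orc4 did not (0.0564). With 3 arrays a label, 25 of the 36 intervals of members that did not pass span 0, so small changes in either direction could not be resolved.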

Other observations

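Complexes whose subunits were measured together were read side by side, a choice made, like that of each gene here, after the values were seen. The origin recognition complex had log2 changes of -0.03 for Orc1, -0.05 for Orc2, 0.11 for Orc3, -0.25 for Orc4, -0.17 for Orc5 and 0.23 for Orc6 in deficient-labelled minus sufficient-labelled arrays, so its 6 subunits were not of a common sign, and Orc4 alone passed in limma. Polymerase epsilon had 0.16 for Pole, 0.38 for Pole2, 0.28 for Pole3 and -0.14 for Pole4, and 0 of these 4 passed by limma (adjusted p from 0.0818 to 0.6), while Pole2, Pole3 and Pole4 had an unadjusted p under 0.05. Among inhibitors and partners of licensing, Gmnn, the inhibitor of Cdt1, read 7.98, 7.99 and 7.92 in deficient-labelled arrays, against 7.71, 7.59 and 7.82 in sufficient-labelled arrays (0.26 ± 0.07 on the log2 scale; limma adjusted p = 0.105). The replication nuclease Dna2 read 6.13, 6.32 and 6.26 in deficient-labelled arrays, against 6.03, 5.63 and 5.82 in sufficient-labelled arrays (0.41 ± 0.11, adjusted p = 0.11). In both the groups did not overlap. Dnmt1, the maintenance methyltransferase that Uhrf1 recruits, had 0.05 ± 0.06 (adjusted p = 0.775).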
